A study of Mus musculus with 4 samples.

Results

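The 10 genes described here mark macrophages and the complement starter C1q. They are the subunit genes C1qa, C1qb and C1qc, the growth factor receptor gene Csf1r, the phagocyte genes Cd68, Mrc1 and Cd163, the IgG receptor genes Fcgr1 and Fcgr4, and the apoptotic cell receptor gene Mertk. They were taken by name from the 47725 genes of the deposited table, where each name occurs in 1 row, and all 10 passed the filter on low counts. Messenger RNA was sequenced from frozen, pulverized whole skin of C57BL/6J mice aged 17 weeks. The control group carried floxed alleles of Ppp6c, written PP6fl/fl in the titles, and the other group is titled cKO. The title of the series sets K5 beside the floxed allele. K5 is taken to mean a keratin 5 promoter, active in basal keratinocytes, in which case macrophages would not carry the deletion. Each of the 2 groups has 2 libraries, numbered 2 and 3. No label states that they are separate animals, and the spread behind the p-values may therefore be technical.

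Counts summed to between 15837136 and 23407731 per library. Ppp6c itself stood at 57.8 and 61.8 CPM (counts per 1000000, scaled by the TMM method) in control and at 62.1 and 50.1 CPM in the cKO libraries numbered 2 and 3. Deletion of the floxed part cannot be read from a count over the whole gene. Whole skin holds many cell types. A change in the number of macrophages and a change in RNA per macrophage cannot be told apart here.

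Macrophages are phagocytes that live in the dermis or arrive as blood monocytes. They depend on signals through the receptor that Csf1r encodes, which binds the growth factors made from Csf1 and Il34. C1q is built from chains of all 3 C1q genes, binds antibody complexes and dying cells, and starts the classical complement pathway. Unlike most complement proteins, which come mainly from the liver, C1q is made largely by macrophages and dendritic cells. In the annotation used for names (GENCODE M21), the C1q genes lie side by side on the minus strand of chromosome 4, with C1qc between C1qb and C1qa.

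The promoters of C1qb, C1qc, Fcgr1 and Fcgr4 are shown because these genes had the smallest p-values among the members or belong to the C1q cluster. Each stretch runs from 250 bases before to 50 bases after the RefSeq start (GRCm38.p6) and is written in the direction of the gene. Capitals mark GAGGAA, the core letters of sites for the macrophage factor encoded by Spi1, or its reverse complement TTCCTC.
C1qb (chr4:136886151-136886450, minus strand): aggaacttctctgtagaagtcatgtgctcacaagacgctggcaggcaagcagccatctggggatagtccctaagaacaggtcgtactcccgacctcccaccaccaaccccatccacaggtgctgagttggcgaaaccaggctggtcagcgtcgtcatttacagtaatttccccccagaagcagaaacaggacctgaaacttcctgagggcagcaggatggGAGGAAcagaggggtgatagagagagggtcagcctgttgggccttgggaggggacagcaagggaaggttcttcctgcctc
C1qc (chr4:136892865-136893164, minus strand): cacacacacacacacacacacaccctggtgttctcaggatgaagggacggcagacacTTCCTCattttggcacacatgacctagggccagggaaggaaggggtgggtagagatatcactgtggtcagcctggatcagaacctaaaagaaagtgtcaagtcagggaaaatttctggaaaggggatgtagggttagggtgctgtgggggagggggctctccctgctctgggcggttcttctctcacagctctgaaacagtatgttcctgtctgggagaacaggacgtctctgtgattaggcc
Fcgr1 (chr3:96293920-96294219, minus strand): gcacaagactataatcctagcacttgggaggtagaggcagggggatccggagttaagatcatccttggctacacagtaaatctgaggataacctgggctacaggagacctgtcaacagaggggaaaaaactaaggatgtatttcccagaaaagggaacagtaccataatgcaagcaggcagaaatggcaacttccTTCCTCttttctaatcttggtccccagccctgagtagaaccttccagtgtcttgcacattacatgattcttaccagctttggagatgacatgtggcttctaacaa
Fcgr4 (chr1:171018676-171018975, plus strand): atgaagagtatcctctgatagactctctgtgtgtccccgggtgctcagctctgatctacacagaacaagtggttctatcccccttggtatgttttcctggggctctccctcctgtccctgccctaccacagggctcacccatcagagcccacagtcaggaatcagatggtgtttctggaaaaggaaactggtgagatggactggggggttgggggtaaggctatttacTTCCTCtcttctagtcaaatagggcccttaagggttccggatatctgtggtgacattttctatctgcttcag

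Of the members, 8 have a promoter in the RefSeq table, and C1qa and Csf1r do not. GAGGAA, searched on both strands, occurred in 6 of the 8 (C1qb, C1qc, Cd68, Mrc1, Fcgr1 and Fcgr4) and in 28.3% of all 32851 promoters of this length. The palindromic pattern TTCNNNGAA, bound by STAT factors, occurred in Fcgr1 alone among the 8 and in 8.3% of all promoters. TGCTGA, a half-site of MAF factors, occurred in C1qb alone and in 19.5% of all promoters. In Fcgr1 and C1qb these matches did not overlap the capitals. The letters describe these windows and do not show that a factor binds there.

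All 3 C1q subunit genes stood higher in both cKO libraries than in either control library, by 2.08- to 2.55-fold. C1qb encodes the B chain, and it was at 56.7 and 70.6 CPM in control replicates 2 and 3, against 153 and 166 CPM in the cKO libraries of the same numbers. The fitted log2 fold change of C1qb was 1.32 ± 0.17 (SE, n = 2 per group), a 2.50-fold difference that missed the threshold of 0.05 (edgeR quasi-likelihood, Benjamini-Hochberg adjusted p = 0.0525 over 17440 genes). C1qa, the A chain gene, was at 46.7 and 66.3 CPM in control and at 137 and 151 CPM in cKO, with a log2 fold change of 1.35 ± 0.21 (edgeR adjusted p = 0.0685). C1qc, the C chain gene, was at 57.8 and 79.6 CPM in control and at 135 and 151 CPM in cKO, with a log2 fold change of 1.05 ± 0.20 (edgeR adjusted p = 0.0898). For each of these genes the groups did not overlap, and the gap between groups exceeded the gap between replicates. The counts behind them were at least 1124 per library.

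Per length, the C1q genes were the most abundant of the 10 in every library. Their summed level was 130.5 and 173 FPKM (the authors' values, fragments scaled to gene length and library size) in control and 339 and 360 FPKM in cKO. The subunits kept the order C1qb, C1qa, C1qc in all 4 libraries, but the share of C1qc differed between the groups. C1qc made up 23.6% and 24.3% of the summed FPKM in control and 20.4% and 20.8% in cKO. C1qa made up 35.4% and 37.5% in control and 38.6% and 38.6% in cKO, and C1qb 41.0% and 38.2% in control and 41.0% and 40.7% in cKO. The FPKM ratio of C1qc to C1qa was 0.666 and 0.647 in control and 0.527 and 0.538 in cKO, a difference of -0.30 on the log2 scale against SDs of 0.03 and 0.02 between replicates. With 2 libraries a group an exact two-sided permutation test cannot go below p = 0.333, so these ratios are given without a test.

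**Figure D1:**
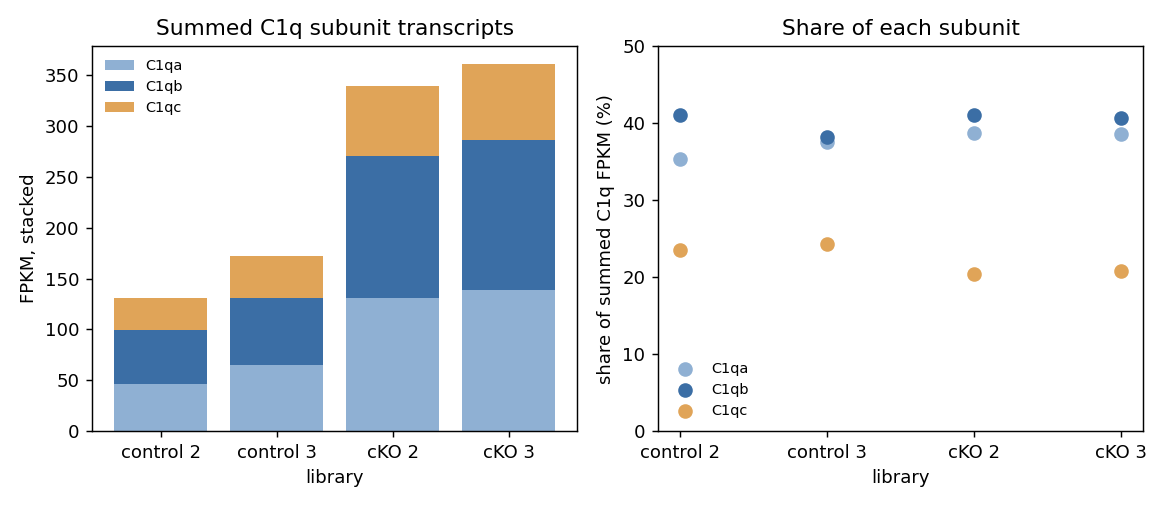
Left, FPKM of the C1q subunit genes stacked for each library; right, the share of each gene in that sum, in percent. The summed level is 130.5 and 173 FPKM in control and 339 and 360 FPKM in cKO, and the C1qc share is 23.6% and 24.3% against 20.4% and 20.8%.

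The enzymes and inhibitor that act with C1q did not pass the test. Of 6 listed partners in the classical pathway, 0 were called and all 6 had a log2 fold change above 0 (median 0.81). For C2, C4b, C3 and Serping1 the groups overlapped. At an unadjusted p under 0.05, 1 of the 6 was higher in cKO, against 10.3% of all tested genes. C1s1 and C1ra, the proteases of the C1 complex, had log2 fold changes of 1.29 ± 0.41 and 1.29 ± 0.48 (SE, n = 2; edgeR adjusted p = 0.194 and 0.25). Serping1, the C1 inhibitor, had 0.81 ± 0.43 (edgeR adjusted p = 0.39). These transcripts split the cKO libraries: C1s1 was at 191 CPM in cKO replicate 2 and at 390 CPM in cKO replicate 3, whereas C1qb differed little between them. Of 7 genes for proteins described to bind C1q, 0 were called and all 7 had a log2 fold change above 0 (median 0.70). At an unadjusted p under 0.05, 3 of the 7 were higher in cKO, again against 10.3% of all tested genes. The largest of the named ones were Lrp1, an endocytic receptor, at 1.77 ± 0.52, and Lair1 and Cd93, at 1.43 ± 0.31 and 1.42 ± 0.22 (edgeR adjusted p = 0.173, 0.104 and 0.068). Lrp1 also split the cKO libraries, at 1035 CPM in replicate 2 and 2715 CPM in replicate 3, against 495 and 603 CPM in control.

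Csf1r, the receptor that macrophages need for survival, was at 84.6 and 116 CPM in control and at 167 and 242 CPM in cKO. Both cKO libraries lay above both control libraries, with a wide gap inside each group. The log2 fold change was 1.03 ± 0.27 (SE, n = 2; edgeR adjusted p = 0.136), a 2.04-fold difference. An opposite-strand gene, Hmgxb3, overlaps Csf1r in GENCODE M21, and no source used here gives the strand setting of the counting, so some reads may belong to it.

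The ligand genes of this receptor, Il34 and Csf1, did not pass the test. Il34, expressed in the epidermis and needed by Langerhans cells, was at 38 and 43.7 CPM in control and at 16.5 and 16.4 CPM in cKO, or on the log2 scale a fold change of -1.31 ± 0.16 that missed the threshold (SE, n = 2; edgeR adjusted p = 0.0525). Csf1 was at 49.6 and 49.2 CPM in control and at 50.1 and 77.2 CPM in cKO (log2 fold change 0.37 ± 0.24, edgeR adjusted p = 0.476). The FPKM ratio of Il34 to Csf1 was 2.06 and 2.40 in control and 0.886 and 0.574 in cKO, so the more abundant ligand transcript per length was Il34 in control and Csf1 in cKO. Of the 5 listed growth factor genes and receptors, 4 were tested and 0 called. Csf2rb, a receptor chain for several myeloid growth factors, had 1.19 ± 0.38 (edgeR adjusted p = 0.197), and Csf2 was too low to be tested.

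Among 5 macrophage transcription factor genes 0 were called, and the median log2 fold change was 0.43. At an unadjusted p under 0.05, 2 of the 5 were higher in cKO, against 10.3% of all tested genes. Maf and Zeb2 had 0.51 ± 0.19 and 0.43 ± 0.15 (edgeR adjusted p = 0.245 and 0.235). Spi1, the master factor of the myeloid lineage, had 0.51 ± 0.25 (edgeR adjusted p = 0.354). Irf8, a factor of monocytes and dendritic cells, had 0.02 ± 0.31, a value that was negative in 5 of the other settings tried.

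Mrc1, the mannose receptor gene, ranked between 4 and 6 of the 10 members per length (FPKM). It was at 132 and 180.1 CPM in control and at 295 and 301 CPM in cKO, with a log2 fold change of 0.93 ± 0.20 (SE, n = 2; edgeR adjusted p = 0.105). The cKO libraries lay close together and above both controls. A microRNA gene, Mir511, lies within Mrc1 on the same strand.

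Cd163, the scavenger receptor for haptoglobin and haemoglobin complexes, was at 106 and 185 CPM in control and at 242 and 188 CPM in cKO. The higher control library and the lower cKO library nearly met in CPM and overlapped in FPKM (34.4 against 33.0), and the log2 fold change was 0.56 ± 0.32 without passing (SE, n = 2; edgeR adjusted p = 0.413). Cd68, a lysosomal glycoprotein gene, was at 25.0 and 40.8 CPM in control and at 54.7 and 50.6 CPM in cKO, or on the log2 scale a fold change of 0.68 ± 0.27 (edgeR adjusted p = 0.272). In CPM, Cd163 and Cd68 stood higher in cKO replicate 2 than in cKO replicate 3, and in FPKM Mrc1 did too (46.0 against 45.3).

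Around Cd163, the haptoglobin gene Hp rose from 159 and 116 CPM in control to 572 and 604 CPM in cKO, or on the log2 scale a fold change of 2.10 ± 0.22 (SE, n = 2; edgeR adjusted p = 0.0476). It was the 1 gene called of 6 listed for handling haemoglobin and haem, and 5 did not pass (list median 0.81). Hmox1, haem oxygenase, had 0.67 ± 0.17 and Spic, a factor of iron-recycling macrophages, 2.07 ± 0.78 (edgeR adjusted p = 0.13 and 0.248).

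Of 8 other scavenger receptors and endocytic lectins, 3 rose, 0 fell and 5 did not pass (median 0.70). Msr1, the class A scavenger receptor, rose from 4.49 and 4.63 to 23.5 and 24 CPM, a log2 fold change of 2.38 ± 0.20 (SE, n = 2; edgeR adjusted p = 0.0428). Stab1, stabilin of macrophages and sinusoidal endothelium, rose by 2.09 ± 0.17, and Mrc2, a collagen-binding relative of Mrc1 found on fibroblasts and macrophages, by 1.21 ± 0.14 on the log2 scale (edgeR adjusted p = 0.0428 and 0.049). Marco, a scavenger receptor of marginal zone and alveolar macrophages, was at 2.83 and 9.91 CPM in control and at 0.127 and 1.37 CPM in cKO. Its log2 fold change, -3.06 ± 1.14, did not pass (edgeR adjusted p = 0.244).

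Fcgr4 and Fcgr1 showed the largest ratios between groups of the 10 members, from low levels. Fcgr4, an activating receptor for IgG, had 17 and 25 counts in control and 93 and 107 counts in cKO, which is 0.706 and 1.10 CPM against 5.92 and 6.39 CPM. On the CPM scale of all counts, without TMM, the exact 95% counting intervals ran from 0.423 to 1.16 and from 0.724 to 1.65 in control and from 4.74 to 7.19 and from 5.02 to 7.41 in cKO, and they cover counting error only. The control and cKO intervals did not meet. The log2 fold change of Fcgr4 was 2.76 ± 0.38 (SE, n = 2; edgeR adjusted p = 0.0559), a 6.78-fold difference.

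Fcgr1, the high-affinity IgG receptor and a marker that separates macrophages from dendritic cells, had 49 and 65 counts in control and 168 and 220 counts in cKO. In CPM these were 2.04 and 2.86 against 10.7 and 13.1, and the log2 fold change was 2.28 ± 0.32 (SE, n = 2; edgeR adjusted p = 0.0586), a 4.85-fold difference. Per length, Fcgr1 stood above Fcgr4 in both control libraries, at 0.81 and 1.12 FPKM against 0.58 and 0.89 FPKM. In cKO the order was not the same, with Fcgr4 at 4.68 and 4.88 FPKM and Fcgr1 at 4.10 and 4.87 FPKM, values that all but coincide in replicate 3.

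The other IgG receptor genes and their signalling chain were higher in both cKO libraries, as were 25.1% of all tested genes. Of the 4 genes, 0 were called (median 0.77). At an unadjusted p under 0.05, 3 of the 4 were higher in cKO, against 10.3% of all tested genes. Fcgr3, which neighbours Fcgr4 on chromosome 1, was at 28.3 and 40.6 CPM in control and at 70.9 and 77.0 CPM in cKO (log2 fold change 1.10 ± 0.22, edgeR adjusted p = 0.0913). Fcgr2b, the inhibitory receptor, had 0.79 ± 0.28 and Fcer1g, the chain shared by the activating receptors, 0.74 ± 0.19 (SE, n = 2; edgeR adjusted p = 0.226 and 0.133). The FPKM ratio of Fcgr4 to Fcgr3 was 0.0346 and 0.0375 in control and 0.116 and 0.115 in cKO, a difference of 1.68 on the log2 scale against SDs of 0.08 and 0.01 between replicates. For Fcgr1 over Fcgr3 the difference was 1.17, with ratios of 0.0483 and 0.0472 in control and 0.101 and 0.114 in cKO. Fcgr2b to Fcgr3 went from 0.913 and 1.02 to 0.737 and 0.832. These receptors are similar in sequence, so reads may have been split between them.

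Mertk, a receptor through which macrophages take up dying cells, was the member with the smallest difference. It was at 30.7 and 35.3 CPM in control and at 34.2 and 38.8 CPM in cKO, and the groups overlapped. Its log2 fold change was 0.15 ± 0.16 (SE, n = 2; edgeR adjusted p = 0.69). An antisense gene, Gm14011, overlaps Mertk in GENCODE M21. Of 8 other genes for the uptake of dying cells, 1 rose, 0 fell and 7 did not pass (median 0.31), and the called gene was Stab1. For the related receptors Axl and Tyro3 the log2 fold changes were 0.65 ± 0.38 and 0.09 ± 0.18, and the bridging ligands Gas6 and Pros1 had 0.10 ± 0.32 and 0.53 ± 0.17 (edgeR adjusted p = 0.427, 0.825, 0.906 and 0.191). Mfge8, another bridging protein, had 0.70 ± 0.19 (edgeR adjusted p = 0.148). Timd4 and Cd36 of this list went the other way, at -2.10 ± 0.55 and -0.55 ± 0.20 (edgeR adjusted p = 0.138 and 0.239). The direction of Tyro3 and Gas6 turned in some of the settings tried.

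**Figure D2:**
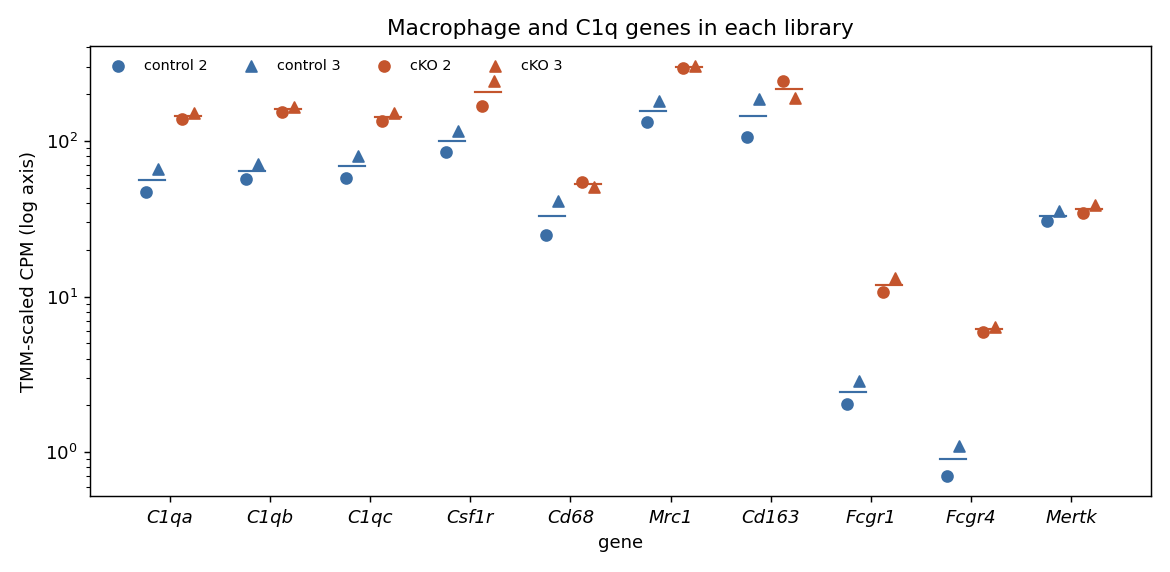
TMM-scaled CPM of the 10 genes in each library on a log axis, with circles for replicate 2, triangles for replicate 3 and horizontal lines for group means. Both cKO libraries lie above both control libraries for every gene but Mertk, and the widest gaps are those of Fcgr1 and Fcgr4.

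Across the 10 members, 0 were called in either direction, where the same edgeR quasi-likelihood test called 190 of 17440 genes (1.09%), 0.74% as higher in cKO and 0.35% as lower. At an unadjusted p under 0.05, 7 of the 10 were higher in cKO (C1qa, C1qb, C1qc, Csf1r, Mrc1, Fcgr1 and Fcgr4), against 10.3% of all tested genes. In 9 of the 10 both cKO libraries lay above both control libraries, against 25.1% of all tested genes. The median log2 fold change of the members was 1.04, where that of all tested genes was -0.0014.

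Other tests made calls on the same counts. DESeq2 and the edgeR exact test each called the same 7 members as higher, where they called 6.19% and 5.64% of all tested genes as higher, and limma voom called 0 members and 0.757% of all genes as higher. In the authors' deposited table the false discovery rate was 8.55e-05 for Fcgr4, 0.00034 for Fcgr1, 0.00123 for C1qb, 0.00146 for C1qa, 0.022 for C1qc and 0.0397 for Csf1r, and 0.0578 for Mrc1. That table put 5.04% of the genes tested here under 0.05 and higher in cKO. With either control library left out, the quasi-likelihood test called 0 genes in all, and no gene given here as risen or fallen kept its call. The same test called 5 members as higher without cKO replicate 2 (C1qa, C1qb, Csf1r, Fcgr1 and Fcgr4) and 3 without cKO replicate 3 (C1qb, Fcgr1 and Fcgr4), where it called 5.08% and 2.54% of all tested genes as higher.

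**Figure D3:**
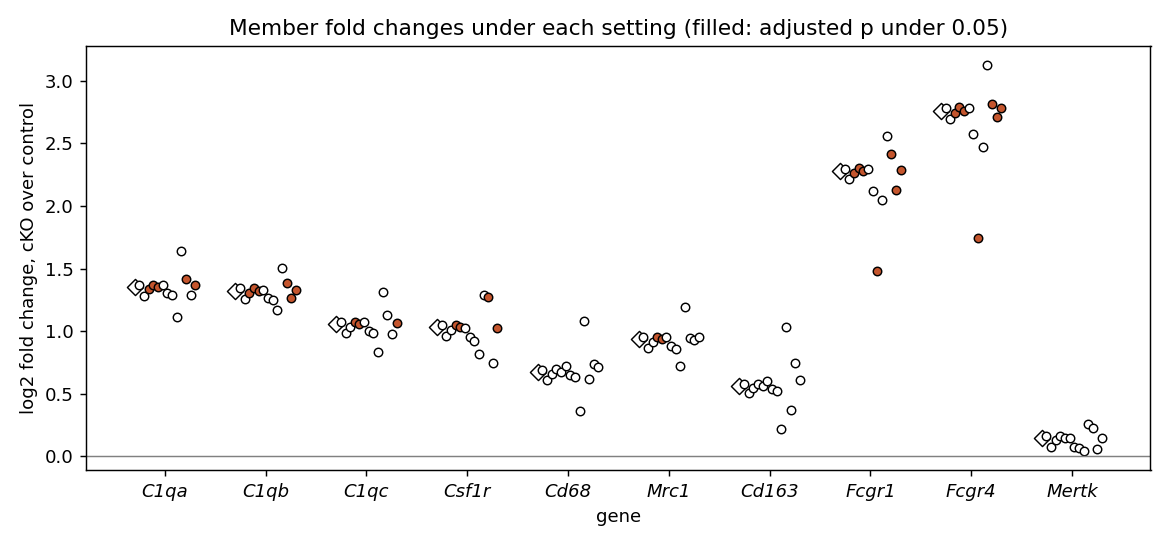
Log2 fold change of each member, cKO over control, under the reported fit (diamonds) and 13 other settings (circles), filled where the adjusted p was under 0.05. All values lie above 0, Mertk between 0.04 and 0.26, and Cd68, Cd163 and Mertk are never filled.

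The control libraries were not alike in these genes. All 10 members were higher in control replicate 3 than in control replicate 2, as were 50.1% of all tested genes, and 8 of 10 were higher by CPM in cKO replicate 3 than in cKO replicate 2, as were 47.8%. The 5 general leukocyte genes listed, of which 0 were called, summed to 222 and 372 CPM in control replicates 2 and 3 and to 348 and 375 CPM in cKO. Ptprc, the CD45 gene carried by all white blood cells, was at 65.7 and 109 CPM in control and at 83.5 and 97.0 CPM in cKO, overlapping groups with a log2 fold change of 0.05 ± 0.28 (SE, n = 2; edgeR adjusted p = 0.949).

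Set against Ptprc within each library, the C1q, Csf1r, Mrc1 and Fc receptor transcripts still stood apart. The FPKM ratio of C1qb to Ptprc was 14.5 and 10.9 in control and 30.7 and 28.9 in cKO. For Csf1r the ratio was 4.83 and 3.97 in control and 7.49 and 9.37 in cKO, and for Mrc1 5.76 and 4.74 against 10.1 and 8.93. The ratio of Fcgr4 to Ptprc was 0.157 and 0.147 in control and 1.03 and 0.961 in cKO. For Mertk it was 1.97 and 1.37 in control and 1.73 and 1.69 in cKO, which overlapped. As Ptprc hardly differed between the groups, ratios to it stay close to the fold changes. Other listed leukocyte genes did not all do the same. Cd53 and Laptm5 had log2 fold changes of 0.89 ± 0.28 and 0.55 ± 0.29, Coro1a -0.02 ± 0.28 and Cd52 -0.45 ± 0.40 (edgeR adjusted p = 0.189, 0.392, 0.979 and 0.605). Ratios to those genes were not computed, and the ratios given here were not tested.

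**Figure D4:**
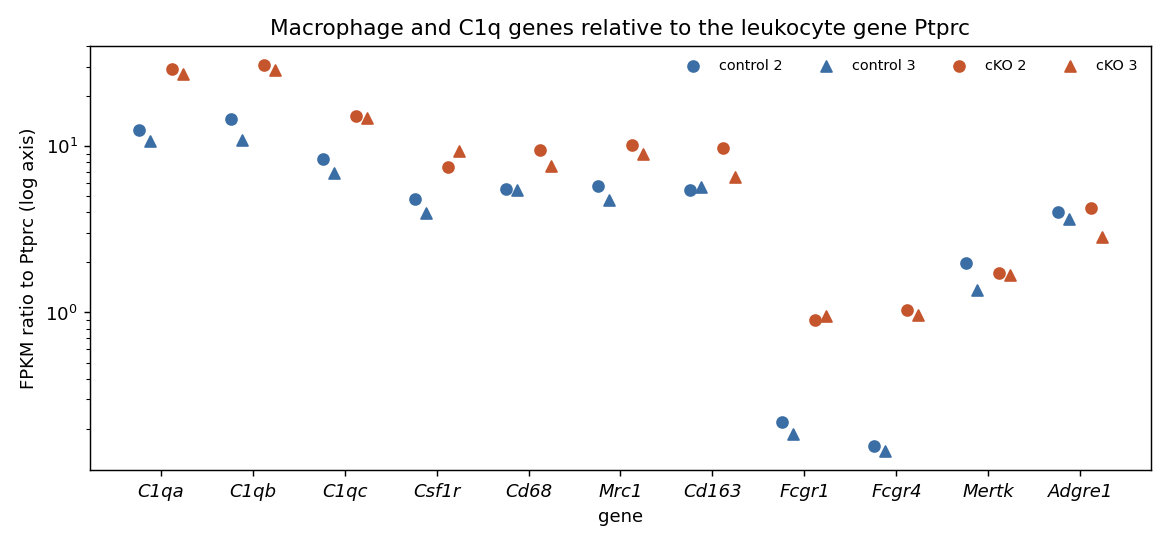
FPKM of the members and of Adgre1 divided by FPKM of Ptprc in the same library, on a log axis, with circles for replicate 2 and triangles for replicate 3. The groups are apart for every member but Mertk, and they overlap for Adgre1.

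The label of these genes was checked against other macrophage markers, which did not all move alike. Of 14 such genes, 3 rose, 0 fell and 11 did not pass (median 1.39), and 12 had a log2 fold change above 0. Lgmn, the lysosomal protease legumain, rose from 66.2 and 67.9 to 220.3 and 259 CPM, Cd14, the coreceptor for lipopolysaccharide, from 6.69 and 9.03 to 176 and 82.0 CPM, and Vsig4, a complement receptor of resident macrophages, from 0.0831 and 0.0881 to 2.93 and 5.49 CPM. Their log2 fold changes were 1.84 ± 0.15, 4.03 ± 0.46 and 5.52 ± 0.61 (SE, n = 2; edgeR adjusted p = 0.0428, 0.0496 and 0.0476). The control value of Vsig4 rests on 4 counts in all and the cKO value on 138. After scaling, their ratio was 49.7, and counting error at the 95% level alone allows 19.0 to 185.

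Several others in this group missed the threshold. Ms4a7 had a log2 fold change of 1.77 ± 0.20, Gpnmb 1.01 ± 0.12, Trem2, a lipid-sensing receptor, 2.76 ± 0.40, and Siglec1, the macrophage sialoadhesin, 1.76 ± 0.30 (edgeR adjusted p = 0.0505, 0.0525, 0.0601 and 0.0766). Adgre1, the usual surface marker of mouse macrophages, was at 46.9 and 70.5 CPM in control and at 62.8 and 48.7 CPM in cKO, with a log2 fold change of -0.07 ± 0.26 (SE, n = 2; edgeR adjusted p = 0.909) whose sign was positive with either replicate 3 library left out. The FPKM ratio of C1qb to Adgre1 was 3.61 and 2.99 in control and 7.24 and 10.2 in cKO. Cx3cr1, the fractalkine receptor, was at 2.70 and 5.77 CPM in control and at 2.93 and 4.83 CPM in cKO.

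**Figure D5:**
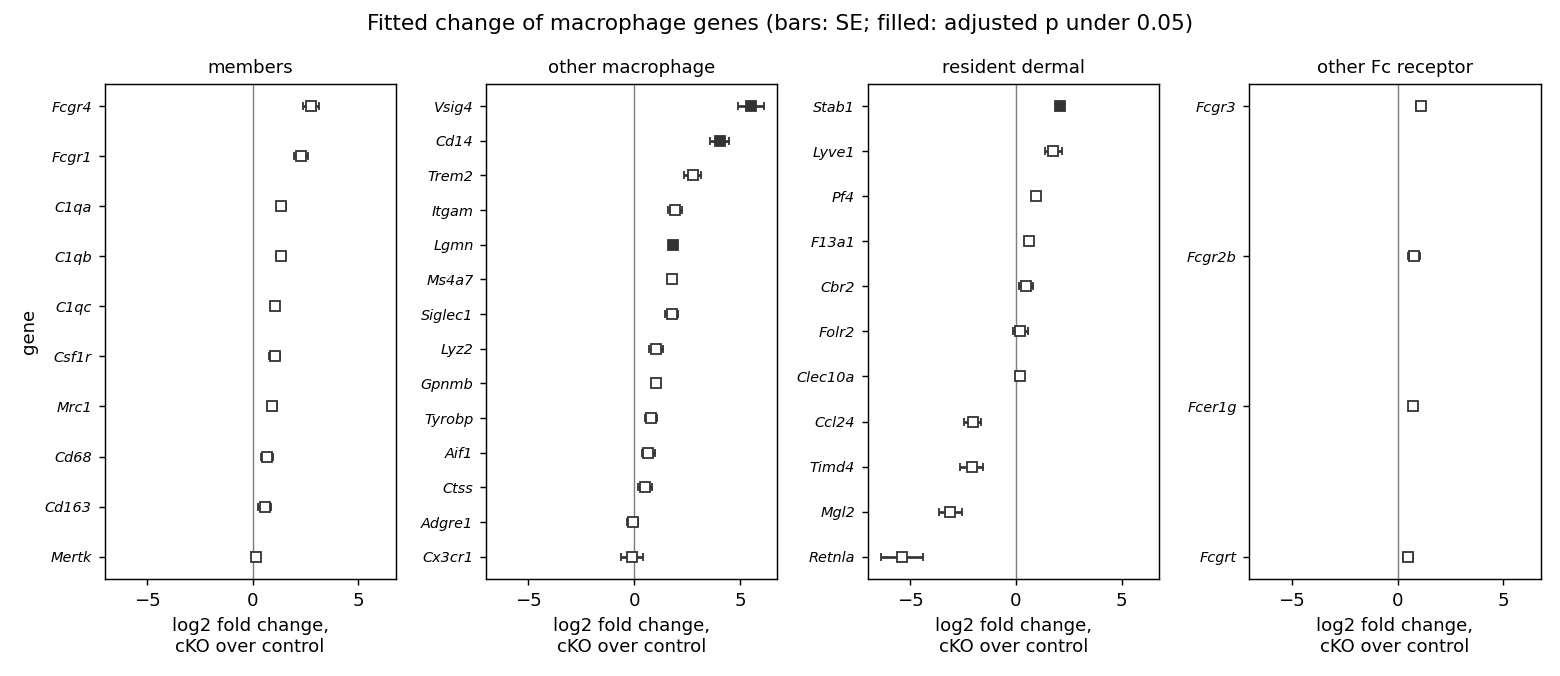
Fitted log2 fold changes, cKO over control, with SE, for the members and for other macrophage, resident dermal macrophage and Fc receptor genes; filled squares passed an adjusted p of 0.05. No member is filled, and the resident dermal panel runs from -5.39 for Retnla to 2.09 for Stab1.

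Markers of resident dermal macrophages spread in both directions. Of 11 such genes 1 rose (Stab1), 0 fell and 10 did not pass (median 0.21); at an unadjusted p under 0.05, 4 were higher and 4 lower in cKO, where 10.3% and 9.69% of all tested genes were. The lower genes were Retnla, Mgl2, Timd4 and Ccl24. Retnla, a secreted product of alternatively activated macrophages, was at 46.1 and 166 CPM in control and at 1.02 and 4.0 CPM in cKO (log2 fold change -5.39 ± 0.99, edgeR adjusted p = 0.0834). Mgl2, a lectin of dermal macrophages and dendritic cells, was at 97.5 and 188 CPM in control and at 10.3 and 23.0 CPM in cKO (-3.10 ± 0.54, edgeR adjusted p = 0.0786). Timd4 had -2.10 ± 0.55 and Ccl24 -2.03 ± 0.40 (edgeR adjusted p = 0.138 and 0.0921), and the groups were apart for all 4. The share of all tested genes with groups apart, in either direction, was 52.9%. Lyve1, which lymphatic endothelium also carries, had 1.77 ± 0.41, F13a1 0.63 ± 0.17 and Folr2 0.21 ± 0.34 (edgeR adjusted p = 0.112, 0.154 and 0.785).

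Activation genes likewise gave no single direction. Among 9 genes of alternatively activated macrophages 1 rose (Il4ra, by 1.63 ± 0.15 on the log2 scale, edgeR adjusted p = 0.0429), 0 fell and 8 did not pass, with a median of 0.48. Arg1 had 2.57 ± 0.49 (edgeR adjusted p = 0.0883), opposite in sign to Retnla and Mgl2 of the same list. Among 9 genes of classically activated macrophages 8 were tested, 1 rose (Il1b, by 4.14 ± 0.26, edgeR adjusted p = 0.0332), 0 fell and 7 did not pass, with a median of 0.87. Il6 and Ptgs2 had 5.82 ± 0.97 and 3.22 ± 0.43 (edgeR adjusted p = 0.0733 and 0.0547). Cxcl9 and Cxcl10, chemokine genes induced by interferon-gamma, had -1.23 ± 0.67 and -0.84 ± 0.55 (edgeR adjusted p = 0.399 and 0.47), with both cKO libraries below both controls. Groups were apart in either direction for 52.9% of all tested genes. Il12b, too low to be tested, was at 0.332 and 0.485 CPM in control and at 0.0636 and 0 CPM in cKO. Other skin cells make several of these transcripts too.

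The summed markers of monocytes, neutrophils and mast cells were also higher in both cKO libraries, though few of the genes passed the test, and their part in these results was not tested. Of 6 monocyte markers 0 were called and 3 had an unadjusted p under 0.05 (Chil3, Plac8 and Vcan, with log2 fold changes of 5.68 ± 1.10, 1.08 ± 0.25 and 1.67 ± 0.39; edgeR adjusted p = 0.0898, 0.113 and 0.114). Ccr2, a chemokine receptor of blood monocytes, had 0.57 ± 0.43, and the 6 genes summed to 106 and 103 CPM in control and to 324 and 235 CPM in cKO. Within these sums Vcan stood at 71.0 and 33.9 CPM in control and at 180 and 154 CPM in cKO. Chil3 stood at 0.416 and 0.837 CPM against 55.4 and 9.43 CPM. For Ccr2 and F10 the groups overlapped. The 10 neutrophil markers summed to 22.4 and 16.6 CPM in control and to 1386 and 915 CPM in cKO, with 3 of 7 tested called higher (S100a8, S100a9 and Mmp8). All 7 had an unadjusted p under 0.05 and were higher in cKO, against 10.3% of all tested genes. Most of the cKO sum came from S100a8, at 354 and 245 CPM, and S100a9, at 858 and 509 CPM. Csf3r was at 4.94 and 6.92 CPM in control and at 48.0 and 101 CPM in cKO. Cxcr2 was at 9.43 and 5.02 CPM against 24.3 and 34.3 CPM, and Retnlg at 0.125 and 0.176 CPM against 77.6 and 16.2 CPM. The granule genes Mpo and Elane, too low to be tested, did not exceed 0.125 CPM in any library. Ly6g, also too low to be tested, was at 0 and 0.132 CPM in control and at 2.48 and 0.477 CPM in cKO. Mast cell markers summed to 113 and 142 CPM in control and to 355 and 588 CPM in cKO, with 1 of 6 called higher (Cpa3). At an unadjusted p under 0.05, 5 of the 6 were higher in cKO, against the same 10.3% of all tested genes.

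All 8 dendritic cell markers had a log2 fold change below 0, though not all moved alike. Zbtb46, Ccr7 and Itgax had -0.0056 ± 0.38, -0.29 ± 0.65 and -0.90 ± 0.49, with overlapping groups. At an unadjusted p under 0.05, 5 of the 8 were lower in cKO, against 9.69% of all tested genes. Of the 8 markers 0 rose and 1 fell (Cd209a, by a log2 fold change of -2.53 ± 0.27, edgeR adjusted p = 0.0472). The 8 summed to 111 and 168 CPM in control and to 34.1 and 46.4 CPM in cKO. The 6 T cell markers summed to 22.1 and 28.0 CPM in control and to 10.2 and 27.8 CPM in cKO, with 0 called. Cd4 made up most of the sum in cKO replicate 3, at 20.9 CPM, and its groups overlapped. For the other 5 (Cd3e, Cd3g, Cd3d, Cd8a and Cd28) both cKO libraries lay below both controls, each with an unadjusted p under 0.05 (list median -1.45). Of all tested genes, 52.9% had groups apart in either direction, and 9.69% were lower at an unadjusted p under 0.05. Lymphatic endothelial markers, which matter beside Mrc1 and Lyve1 because that endothelium expresses both, summed to 121 and 159 CPM in control and to 188 and 359 CPM in cKO, with 0 of 5 called. Fibroblast markers summed to 4092 and 2992 CPM in control and to 10593 and 6338 CPM in cKO, with 0 of 5 called, and keratinocyte markers to 16729 and 15112 CPM against 31346 and 38031 CPM, with 0 of 4 called. The keratinocyte genes did not move alike. Krt1, Krt14 and Krt10 had log2 fold changes of 2.38 ± 0.49, 1.48 ± 0.42 and 0.61 ± 0.47, while Krt5 had -0.02 ± 0.39 with overlapping groups (edgeR adjusted p = 0.0959, 0.163, 0.543 and 0.987). In each of these lists every gene had counts in at least 1 library.

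The genes whose profile over the 4 libraries lay nearest to the mean of the C1q genes were Pik3ap1, Stac2, Klra3, Ttll7 and Unc93b1, out of 14714 ranked by the root mean square distance of centred log2 CPM. The distances ran from 0.0252 for Pik3ap1, an adaptor of phosphoinositide signalling in leukocytes, to 0.0656 for Unc93b1, a chaperone of endosomal Toll-like receptors. Pik3ap1 was at 4.86 and 6.74 CPM in control and at 12.7 and 14.6 CPM in cKO. Of the ranked genes, 296 lay within 0.25, so with 4 libraries many genes share this profile.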

How the data were processed

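Libraries were made from oligo(dT)-selected RNA with a TruSeq kit, per the labels' protocols. The expected counts per gene are the authors', estimated with RSEM per the submitters' processing notes, and hold whole numbers only. Per the file headers, FPKM was computed by the authors. The log2 fold change, p-value and false discovery rate of the deposited comparison are the authors' as well, and edgeR is named in the notes. The notes name build mm8; no source used here gives the aligner, the annotation or the strand setting. Columns named Ctr were matched to the PP6fl/fl titles. The table also has 4 empty lines, not analysed here. GENCODE M21 and RefSeq GRCm38.p6 served for gene neighbours and promoters only.

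Counts were filtered with filterByExpr, scaled with TMM and tested with edgeR 4.0.16 (R 4.3.3) by glmQLFit and glmQLFTest without covariates, with Benjamini-Hochberg adjustment over all 17440 tested genes and a threshold of 0.05. SE is the unshrunken log2 fold change divided by the square root of F. SDs were taken over 2 libraries. Log2 CPM used a prior count of 2. Replicates were no copies of one library: the mean chi-square over genes between them was 26.3 (control) and 97.6 (cKO). Alternatives were DESeq2 1.42.0, limma 3.58.1 and those of the closing section. Scripts were tested on simulated data. Counting intervals are Clopper-Pearson (exact, 95%).

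The members, the 21 other gene lists and the tests were chosen with earlier results of these data known. From each list the 3 genes with the smallest p were picked for the settings of the closing section, with the 5 nearest profiles. Some of these, among the dendritic cell, mast cell, lymphatic and fibroblast markers, are not named in the text. Some further listed genes and the motifs were chosen after values were seen. Further genes of the lists are not reported here, and the list counts leave them out.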

Additional observations from a re-analysis of the deposited data

How the results depend on the processing

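All 10 members kept a positive log2 fold change in all 13 alternatives, and their median ran from 0.83 to 1.30 when single libraries were left out (1.30 without control replicate 3). Leaving out 1 library at a time gave 0 to 5 members called higher, and 0 to 940 genes higher and 0 to 724 lower over the whole table, against 129 and 61 as reported. Without cKO replicate 2 there were 5 members called and without cKO replicate 3 there were 3 members; a lone library is assumed to vary like the other group. DESeq2 called 7 members (1080 genes higher, 806 lower) and the edgeR exact test 7 members (984 and 827). With no filter beyond 1 count there were 4 members (494 and 389), with limma on log2(FPKM + 1) 2 members (187 and 155), with limma on log2(FPKM + 0.1) 0 members (45 and 33), and with library size alone 0 members (113 lower). Cd68, Cd163 and Mertk passed in none of these. The cause of these differences was not tested.

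Replicate numbers are shared between the groups, but nothing in the labels says that they pair samples. The deviations of same-numbered libraries correlated at 0.41 across genes, which are not independent. With the replicate number as a block, 6 members were called higher (716 genes higher and 461 lower).

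Among the 85 other genes followed over the settings, not all of them named in the text, 18 of 1104 values changed sign, none past the threshold. Calls were lost in 48 values, 28 of them with 1 library left out. The other 20 were Cd14 and Cpa3 with DESeq2 size factors, Mrc2 with library size alone, Vsig4, Cd14, Mmp8 and Cd209a with limma voom, and, with limma on log2(FPKM + 0.1), Stab1, Mrc2, Lgmn, Vsig4, Cd14, Il4ra, Hp, Mmp8, Cd209a and Cpa3, of which Mrc2, Vsig4 and Mmp8 were also lost on log2(FPKM + 1). Adjusted p in these 20 ran from 0.0502 to 0.0867. With library size alone Ptprc was at -0.02 and Irf8 at -0.0501. With limma on log2(FPKM + 0.1) and log2(FPKM + 1), Irf8 was at -0.0235 and -0.0227 and Gas6 at -0.035 and -0.0344. With single libraries left out, Ptprc ran from -0.28 to 0.47, Irf8 from -0.29 to 0.41, Gas6 from -0.40 to 0.47, Adgre1 from -0.34 to 0.26, Cx3cr1 from -0.57 to 0.54, Cd52 from -0.84 to 0.10, Folr2 from -0.27 to 0.57 and Tyro3 from -0.12 to 0.29. Among the members the lowest count was 17, for Fcgr4 in control replicate 2, and Vsig4 had 2 counts in each control library.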
